A study of Mus musculus with 2 samples.

Results

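The 75 genes described here encode the proteins of the mitochondrial ribosome: 46 genes of the large subunit, named Mrpl, and 29 genes of the small subunit, named Mrps. They were chosen by name alone, as the non-control probes in both scanner tables whose gene name begins with Mrpl or Mrps and a number, which gave 124 of 41174 probes. RNA was compared between GFP-high cells sorted from the dorsal skin of Lgr5-EGFP-ires-CreERT2 knock-in mice and GFP-high cells sorted from the dorsal skin of Lgr6-EGFP-ires-CreERT2 knock-in mice. In both lines the knocked-in cassette holds GFP and a tamoxifen-inducible Cre, so both populations carry it, and GFP marks the cells in which the Lgr5 or the Lgr6 promoter is active. Lgr5 and Lgr6 encode related receptors that mark stem cells of the hair follicle. Each sort combined 3 mice, and the labels give neither age nor sex. The same populations were hybridised on 2 two-colour arrays with exchanged dyes: the Lgr5-high RNA was labelled with Cy3 on array 1 and with Cy5 on array 2. Whether separate extracts went onto the arrays is not stated in the labels, and the pair was counted as 1 replicate. No test between the populations is possible on that basis, and every SD below is over the 2 arrays and covers technical spread only.

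The mitochondrial ribosome translates the few messenger RNAs of the mitochondrial genome, all of which encode membrane subunits of the respiratory chain and the ATP synthase. Its ribosomal RNAs are made in the mitochondrion, whereas every one of its proteins is encoded in the nucleus, made in the cytoplasm and imported. Some of these proteins descend from families that bacterial ribosomes also have, and others are found only in mitochondria. The small subunit reads the messenger RNA, and the large subunit joins amino acids and releases the chain at the inner membrane.

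Many of these genes share their start region with a neighbour, and the sequences of one such pair are shown first because the mean ratios of its members stood on opposite sides of 0. It was chosen after its values were seen. Mrpl46 and Mrps11 lie head to head on chromosome 7, with starts 42 bases apart. The bases between them in build GRCm38.p6 of RefSeq, chr7:78783090-78783130, are printed on the plus strand, the strand of Mrps11.
Mrpl46 and Mrps11, between the starts: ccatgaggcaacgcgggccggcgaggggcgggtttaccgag
Each gene was read by a probe of 60 bases that crosses at least 1 intron. The Mrpl46 probe is placed at chr7:85925493-85926340 on the minus strand of build mm9 by the scanner tables, and the Mrps11 probe at chr7:85933622-85935544 on the plus strand.
Mrpl46 probe: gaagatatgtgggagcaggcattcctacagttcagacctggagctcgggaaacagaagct
Mrps11 probe: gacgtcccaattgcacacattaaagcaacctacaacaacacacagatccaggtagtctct
The next sequences are the 250 bases before the start of Mrpl12, chr11:120484387-120484636 on the plus strand, and of Mrpl52, chr14:54426659-54426908 on the plus strand, again from RefSeq on GRCm38.p6. They are shown as examples of letters that recur upstream of these genes. Capitals mark the NRF1 letters in Mrpl12, which are GCGC, any base and TGCGC, and in Mrpl52 the ETS letters CCGGAAG read on the opposite strand.
Mrpl12 upstream: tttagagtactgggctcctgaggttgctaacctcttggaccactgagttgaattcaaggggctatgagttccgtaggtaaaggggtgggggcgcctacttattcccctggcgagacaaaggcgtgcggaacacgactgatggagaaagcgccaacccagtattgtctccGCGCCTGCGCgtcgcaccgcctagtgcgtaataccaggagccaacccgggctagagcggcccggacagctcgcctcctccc
Mrpl52 upstream: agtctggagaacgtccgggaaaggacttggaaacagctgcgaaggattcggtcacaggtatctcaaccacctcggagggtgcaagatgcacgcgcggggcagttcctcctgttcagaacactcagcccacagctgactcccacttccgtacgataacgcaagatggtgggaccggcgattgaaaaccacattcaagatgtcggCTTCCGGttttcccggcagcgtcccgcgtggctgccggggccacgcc

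A gene entered the comparison if one of its probes was well above background in at least 1 population on both arrays, and was then represented by its brightest such probe. Of the 75 genes, 61 entered, 38 of the large and 23 of the small subunit, among 6196 genes in all. Ratios are log2 of Lgr6-high over Lgr5-high, so that a value below 0 means less signal in the Lgr6-high cells. The mean ratio was below 0 for 59 of the 61 genes (96.7%), against 53.6% of all genes. On both arrays separately it was below 0 for 50 (82.0%), against 38.7% of all genes. Above 0 on both arrays was 1 gene, Mrpl50, against 33.7% of all genes. The median ratio was -0.41, or 1.33-fold less in the Lgr6-high cells, with -0.40 on array 1 and -0.42 on array 2. The median of all genes was -0.05. The Mrp genes were thus lower in the Lgr6-high cells nearly throughout, mostly by less than 2-fold. In sorted populations, fewer cells of a type and less RNA per cell cannot be told apart.

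With 1 replicate, rules of size replace a test. Under the 2-fold rule, the mean ratio had to be 1 or more from 0 on the log2 scale, with 0.5 or more in that direction on each array. It was met by 4 of the 61 genes as higher in Lgr5-high, Mrpl11, Mrpl28, Mrpl13 and Mrps33, against 4.79% of all genes. None met it as higher in Lgr6-high, against 7.21% of all genes. A second, 1.41-fold rule asked for 0.5 in the mean and 0.25 on each array. It was met by 20 genes (32.8%) as higher in Lgr5-high, against 16.8% of all genes. None met it the other way, against 16.5% of all genes. Of the 20 genes, 14 belonged to the large and 6 to the small subunit.

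**Figure D1:**
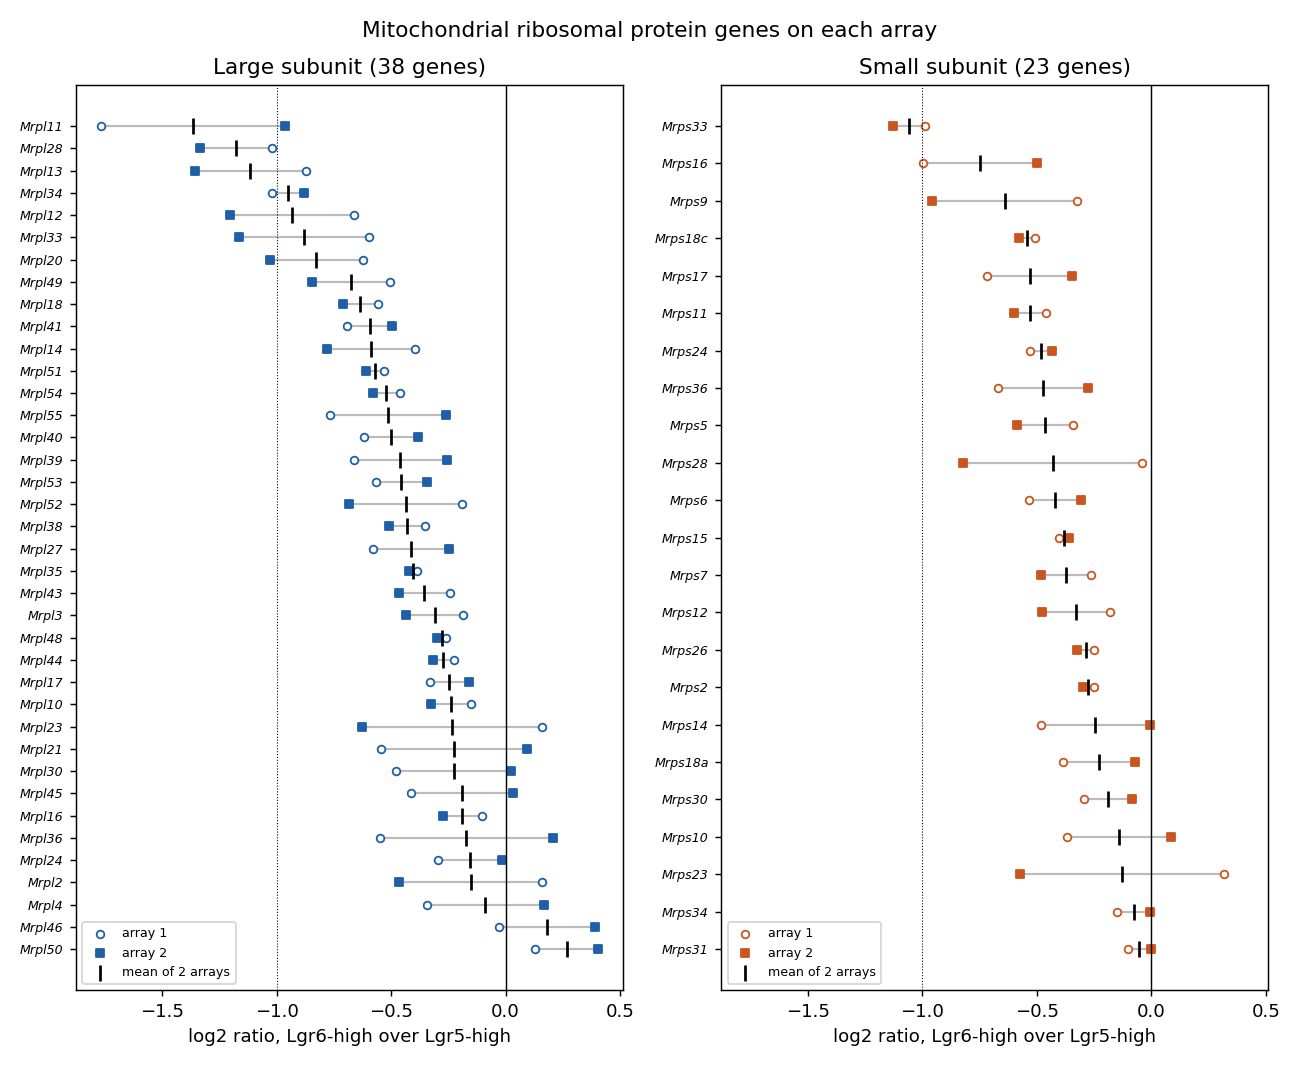
Log2 ratio of Lgr6-high over Lgr5-high for each of the 38 large subunit genes (left) and 23 small subunit genes (right), with array 1 as open circles, array 2 as filled squares and their mean as a black bar. The dotted line marks 2-fold lower in Lgr6-high. Mrpl50 alone lies above 0 on both arrays.

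Among large subunit genes, Mrpl11, a protein at the base of the stalk where translation factors bind, showed the lowest ratio. Its level in Lgr5-high cells, in log2 units after normalisation, was 10.18 on array 1 and 9.55 on array 2. In Lgr6-high cells it was 8.41 and 8.59, so the populations did not overlap. The ratios were -1.77 and -0.96, with a mean of -1.37 ± 0.57 (SD, 2 arrays), which is 2.58-fold lower. Mrpl12, the stalk protein that recruits those factors, had levels of 9.56 and 9.81 in Lgr5-high and of 8.90 and 8.60 in Lgr6-high cells. Its ratio was -0.93 ± 0.38, short of the 2-fold rule in the mean. The stalk pair was thus low in the Lgr6-high cells on each array, while Mrpl10, which anchors Mrpl12, had a ratio of only -0.24 ± 0.12.

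Mrpl28 is a large subunit protein of a bacterial family. Its levels were 11.48 and 11.59 in Lgr5-high against 10.46 and 10.25 in Lgr6-high cells, a ratio of -1.18 ± 0.22. A second, dimmer Mrpl28 probe gave -0.64, the same direction at a smaller size. Mrpl13, which is also of a bacterial family, had levels of 9.24 and 9.81 in Lgr5-high and of 8.37 and 8.45 in Lgr6-high cells, a ratio of -1.11 ± 0.34. For both genes the levels of the populations did not overlap.

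The next large subunit genes in order were Mrpl34, Mrpl33 and Mrpl20, also of bacterial families. Mrpl34 read -1.02 and -0.88, but its Lgr6-high spot was not well above background on array 1, and the scanner's own ratio for it was -2.43. Mrpl33 read -0.60 on array 1 and -1.17 on array 2, and Mrpl20 read -0.62 and -1.03. In all 3 genes the Lgr5-high levels lay above the Lgr6-high levels on both arrays. The remaining large subunit genes past the 1.41-fold rule had mean ratios between -0.68 and -0.51. They were Mrpl49, Mrpl41, Mrpl51 and Mrpl54, which are found only in mitochondria, and Mrpl18, Mrpl14 and Mrpl55, whose families bacteria share. Mrpl49 (-0.51 and -0.85) and Mrpl18 (-0.56 and -0.71) were each read by 3 probes that differed by at most 0.14 and 0.08 in mean ratio. For Mrpl49 the Lgr6-high spot was not well above background on array 1, and the scanner's own ratio was -1.34. Mrpl41 read -0.69 and -0.50. Mrpl14 read -0.40 and -0.78, but the scanner's own ratio for it was -0.36, short of the 0.5 that the 1.41-fold rule asks for. Mrpl51 (-0.53 and -0.61) and Mrpl54 (-0.46 and -0.58) differed little between the arrays, and Mrpl55 (-0.77 and -0.26) differed more.

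At the other end, Mrpl50, a mitochondria-only protein, was the 1 gene with more signal in the Lgr6-high cells on both arrays. Its levels were 7.16 and 6.95 in Lgr5-high and 7.29 and 7.36 in Lgr6-high cells, a ratio of 0.27 ± 0.19. In Lgr5-high cells it was not well above background on array 2. Mrpl46, a relative of nucleotide-hydrolysing Nudix enzymes, had a mean of 0.18 ± 0.29 from ratios of -0.03 and 0.39, so its direction differed between the arrays. Mrpl4, which lines the exit tunnel of the ribosome, read -0.34 and 0.17, and Mrpl2, near the catalytic centre, read 0.16 and -0.47. Mrpl24 read -0.30 and -0.02. None of these 5 genes met either rule of size.

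In the small subunit, Mrps33, a mitochondria-only protein, showed the lowest ratio and the closest match between arrays among the 4 called genes. Its levels were 10.64 and 10.54 in Lgr5-high against 9.65 and 9.42 in Lgr6-high cells, with no overlap. The ratio was -1.06 ± 0.10, and a second, dimmer Mrps33 probe gave -0.59. Mrps16, of a bacterial family, had levels of 11.08 and 10.89 in Lgr5-high and of 10.08 and 10.39 in Lgr6-high cells, a ratio of -0.75 ± 0.35. Mrps9, whose bacterial relative reaches toward the transfer RNAs, read -0.32 and -0.96. Both passed the 1.41-fold rule, and so did Mrps18c, Mrps17 and Mrps11.

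Mrps18c had a mean ratio of -0.54, Mrps17 of -0.53 and Mrps11 of -0.53, all of bacterial families. Mrps18c read -0.51 and -0.58 and Mrps11 read -0.46 and -0.60, and in both the Lgr6-high spot was not well above background on array 1. Mrps17 read -0.72 and -0.35, with both populations above background on both arrays. Mrps12, part of the decoding centre, had a ratio of -0.33 ± 0.21. The small subunit genes nearest to 0 were Mrps31, Mrps34, Mrps23, Mrps10 and Mrps30. Mrps31 read -0.10 and -0.00035, and Mrps34 read -0.15 and -0.0052. Mrps10 read -0.37 and 0.08, and Mrps30 read -0.29 and -0.08. Mrps23 stood out among them by the gap between its arrays, 0.32 on array 1 and -0.57 on array 2. Its Lgr6-high spot was not well above background on array 1. The scanner's own ratios gave Mrps34 a mean of 0.11, on the other side of 0. No small subunit gene had a mean above 0 after loess.

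Set side by side, the subunits differed little. The large subunit had a median ratio of -0.42, with quartiles at -0.59 and -0.23, and the small subunit of -0.38, with quartiles at -0.50 and -0.24. The difference between the medians, large minus small, was -0.04, and it was -0.10 on array 1 and -0.07 on array 2. Below 0 on both arrays were 29 of 38 large and 21 of 23 small subunit genes. The 1.41-fold rule was met by 36.8% of large and 26.1% of small subunit genes. Genes are not replicates, so these shares carry no test, and with median centring in place of loess the difference between medians was 0.01, with the sign turned.

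The name does not always give the place in the ribosome. Mrps30 and Mrps18a sit in the mammalian large subunit, and Mrps36 is a component of the oxoglutarate dehydrogenase complex. Placed by position, the medians were -0.41 for 40 large and -0.40 for 20 small subunit genes. Division by assigned origin gave -0.41 for the 38 genes of bacterial families and -0.39 for the 22 listed as found only in mitochondria. Within the small subunit by name, which includes Mrps30 and Mrps18a, the 15 genes of bacterial families had a median of -0.42. The 7 genes listed as mitochondria-only had a median of -0.19, with -0.15 on array 1 and -0.32 on array 2. They included Mrps28, which read -0.04 and -0.82, and the medians depend on how such genes are assigned. In the large subunit by name the medians were -0.40 for 23 genes of bacterial families and -0.44 for 15 mitochondria-only genes. The 3 large subunit genes past the 2-fold rule were all of bacterial families, and the 1 small subunit gene past it was found only in mitochondria.

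**Figure D2:**
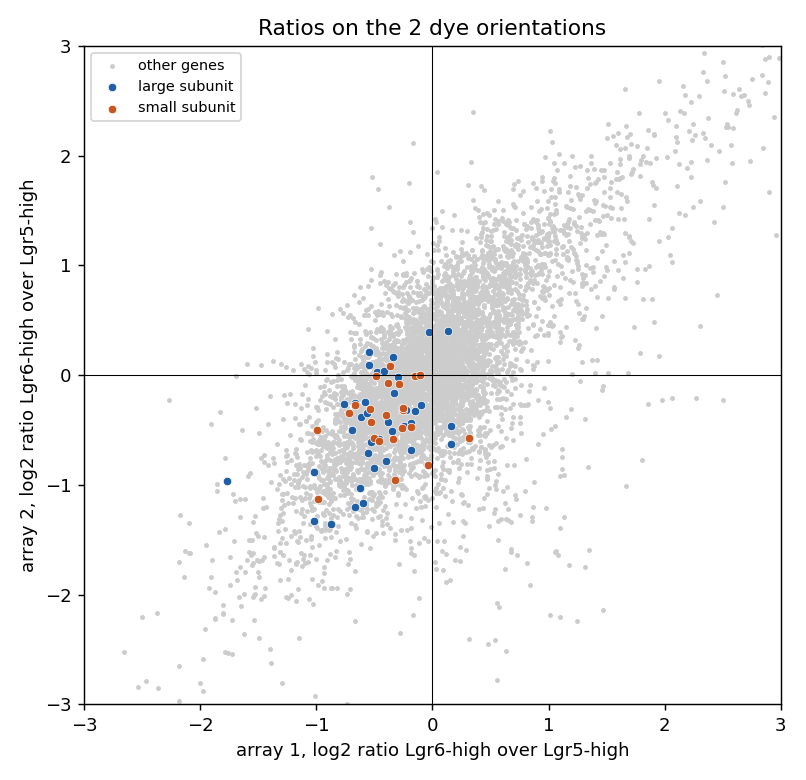
Log2 ratio of Lgr6-high over Lgr5-high on array 1 (horizontal) against array 2 (vertical), with large subunit genes in blue, small subunit genes in orange and other genes in the comparison in grey (55 of them lie outside the plotted range). 50 of the 61 genes fall in the lower left of the plot, where both arrays are below 0.

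The 2 dye orientations agreed in direction for most genes but not in size. Over the 61 genes the ratios of the arrays correlated with r = 0.42 (Pearson) and rho = 0.31 (Spearman), against r = 0.74 over all genes, which span a wider range. These correlations are across genes that share the same RNA and are given as a description. The arrays disagreed in direction for 10 of the 61 genes (16.4%), against 27.6% of all genes. They were Mrpl2, Mrpl4, Mrpl21, Mrpl23, Mrpl30, Mrpl36, Mrpl45, Mrpl46, Mrps10 and Mrps23. Where several probes of a gene passed, for 9 genes, all gave the same sign, with a median range of 0.14 and a widest range of 0.54 in Mrpl28.

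Detection of the Mrp genes in the Lgr6-high cells was near that of all genes. In the Lgr5-high cells, 61 of the 61 genes were well above background on array 1 and 60 (98.4%) on array 2, against 98.8% and 89.0% of all genes. In the Lgr6-high cells the counts were 49 (80.3%) and 61, against 83.4% and 99.3% of all genes. On array 1 alone, 12 genes were not well above background in Lgr6-high, where the ratio is less certain. No gene was below background in one population on both arrays. The levels of both arrays in Lgr5-high lay above both levels in Lgr6-high for 45 genes (27 large, 18 small), against 34.3% of all genes. The reverse held for 1 gene, Mrpl50, against 29.1% of all genes. Among the 48 genes above background in both populations on both arrays, 47 had a mean ratio below 0 and the median was -0.42. Under the same filter, 52.3% of 4504 genes in all had a mean ratio below 0, with a median of -0.03.

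**Figure D3:**
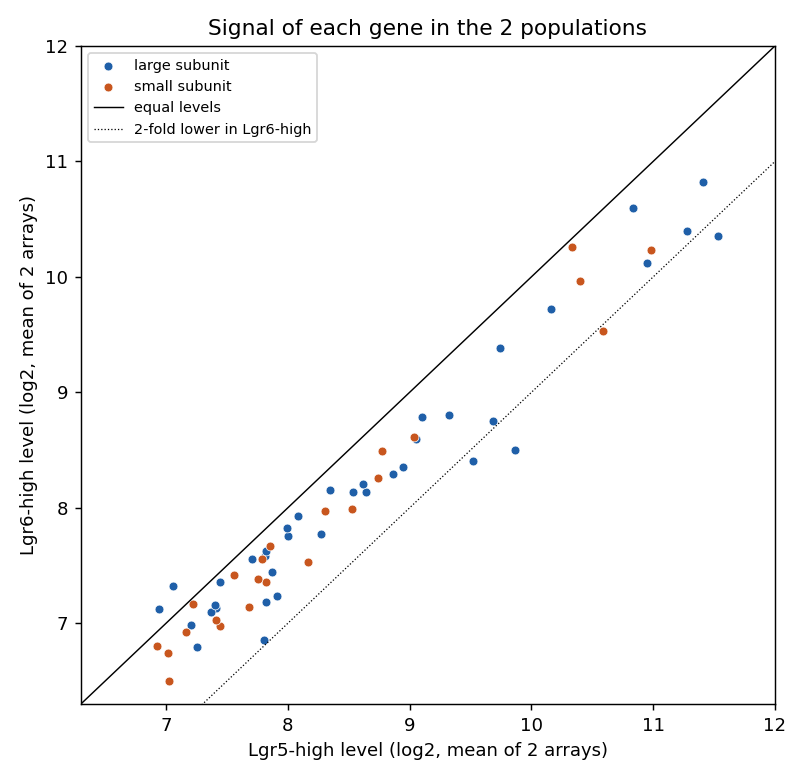
Level of each gene in Lgr5-high (horizontal) and Lgr6-high cells (vertical), in log2 units after normalisation, as the mean of 2 arrays, for large (blue) and small (orange) subunit genes. The solid line marks equal levels and the dotted line 2-fold lower in Lgr6-high; 59 genes lie below the solid line.

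The 14 genes that did not enter were Mrpl1, Mrpl9, Mrpl15, Mrpl19, Mrpl22, Mrpl32, Mrpl37 and Mrpl47 of the large subunit and Mrps18b, Mrps21, Mrps22, Mrps25, Mrps27 and Mrps35 of the small. None had a probe well above background in the same population on both arrays. The ratios of their brightest probes lay between -0.39 and 0.26, with 9 of 14 below 0, and are not measurements of a difference.

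After loess, brighter genes showed lower ratios, and the scanner's own ratios did not show this order. Over the 61 genes, mean ratio and mean log2 intensity correlated with r = -0.48 (Pearson) and rho = -0.45 (Spearman) after loess, given as a description. The 31 genes with a mean log2 intensity under 8 had a median ratio of -0.25, against -0.03 for all genes of that brightness. The 21 genes between 8 and 10 had a median of -0.45, against -0.04. The 9 genes at 10 or more had a median of -0.75, against -0.27. In that brightest range the medians over all genes differed between arrays, 0.11 on array 1 and -0.55 on array 2, whereas the 9 Mrp genes had -0.60 and -0.82. With the scanner's own ratios the medians ran the other way, from -0.67 under 8 and -0.62 between 8 and 10 to -0.57 at 10 or more, against -0.13, -0.05 and -0.03 for all genes. By both ways of processing, in each of these ranges the median of the Mrp genes lay below that of all genes of the same brightness.

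Subunits of the mitochondrial ribosome whose symbols do not begin with Mrpl or Mrps, or did not in the array's design, were described as a list of 8 genes. All 8 were measured, all had a mean ratio below 0, and their median was -0.68. Mrpl58, listed on the array as Ict1, a peptidyl-tRNA hydrolase built into the large subunit, had ratios of -1.30 and -1.14 on arrays 1 and 2. Chchd1, a small subunit protein with a cysteine-rich fold, had ratios of -0.86 and -1.22. Both met the 2-fold rule. Past the 1.41-fold rule were also Mrpl42 (-0.98 and -0.83), Dap3, a GTP-binding protein of the small subunit (-1.08 and -0.53), and Aurkaip1 (-0.79 and -0.34). The value nearest to 0 was that of Ptcd3, at -0.03 ± 0.10. Mrpl42 joined the list only when its older name was found in the array's design.

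Factors that work with the mitochondrial ribosome were mostly too dim to measure. Of 11 mitochondrial translation factors, 2 were measured. Mrrf, which recycles the ribosome, had a ratio of -0.46 ± 0.45, and Tufm, which delivers transfer RNAs, of -0.45 ± 0.43. Neither met a rule of size, and in each array 1 gave the lower ratio. Of 21 genes for assembly of the ribosome and modification of its RNA, 7 were measured, with a median of -0.14, and none met either rule. They ran from Mtg1, a GTPase of assembly, at -0.30 ± 0.07, to Malsu1, which binds the maturing large subunit, at 0.08 ± 0.54.

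The products of mitochondrial translation join nuclear-encoded subunits of the respiratory chain and the ATP synthase. Of 92 such genes on the array 81 were measured, and 77 had a mean ratio below 0, 66 of them on both arrays. Their median was -0.57, with -0.46 on array 1 and -0.69 on array 2, and 37 met the 1.41-fold rule as higher in Lgr5-high. The cytoplasmic ribosomal protein genes, 77 of 92 measured, behaved otherwise between arrays after loess. Their median was -0.33, but it was 0.27 on array 1 and -0.94 on array 2. The scanner's own ratios gave -0.07, with -0.04 on array 1 and -0.10 on array 2. A direction for the cytoplasmic genes therefore depended on the array after loess, while the scanner's ratios put them near 0 on both arrays. The medians of the mitochondrial ribosomal and respiratory genes were below 0 on both arrays by either processing. Whether the lists differ was not tested.

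**Figure D4:**
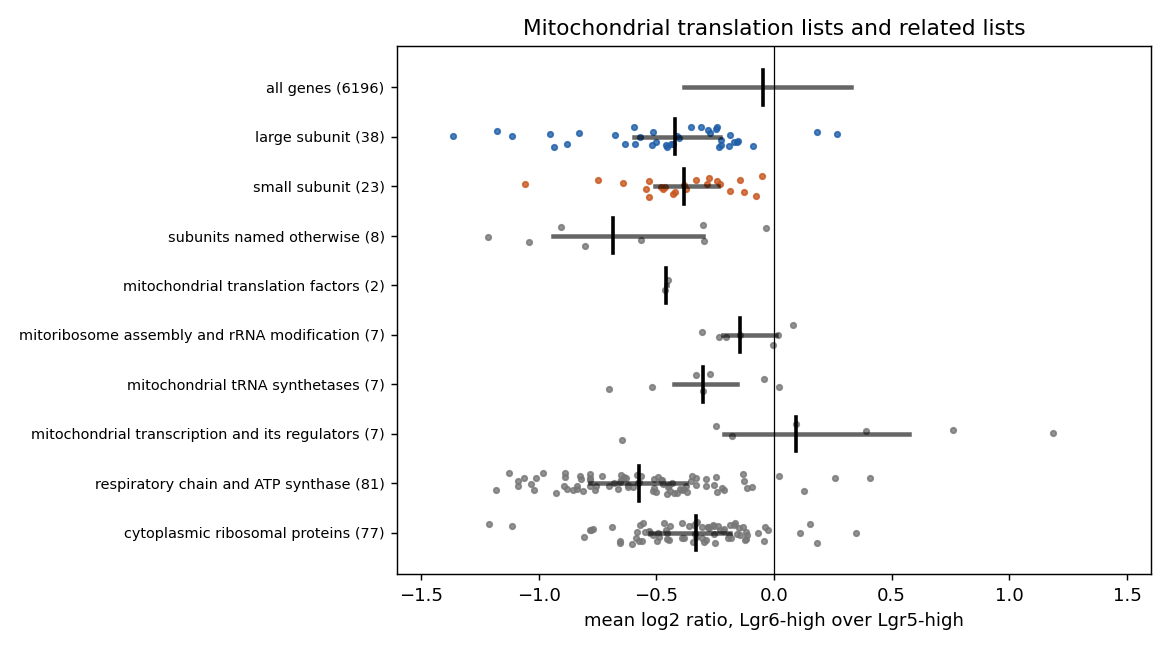
Mean log2 ratio of Lgr6-high over Lgr5-high for the measured genes of each list (points; number of genes in brackets), with the median as a vertical bar and the quartiles as a horizontal bar; all genes are shown by median and quartiles only. The medians of both subunits lie to the left of the median of all genes, -0.05.

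Marker genes of other cells and of dividing cells also differed between the populations. Of 12 cell cycle genes 11 were measured, all were below 0 on both arrays, their median was -1.0, and 6 met the 2-fold rule as higher in Lgr5-high. The summed level of the list was 11037 and 11108 in Lgr5-high and 4924 and 4976 in Lgr6-high cells. Of 8 fibroblast genes 5 were measured, and 4 met the 2-fold rule toward Lgr5-high. In Lgr6-high cells none of the 5 was well above background on array 1 and 2 were on array 2, so no size is given for their ratios. The summed levels of the list were 3188 and 1961 in Lgr5-high and 917 and 517 in Lgr6-high cells, and Pdgfra was at background throughout. Of 7 endothelial and mural genes 3 were measured, all past the 2-fold rule toward Lgr5-high, with 1 of the 3 well above background in Lgr6-high on array 1 and 2 on array 2, and with summed levels of 2697 and 2342 against 824 and 505, while Cdh5, Kdr, Pecam1 and Rgs5 were at background in every channel. No leukocyte gene of 6 was measured. Both red cell genes and 1 of 4 melanocyte genes, Dct, which was not well above background in Lgr6-high on either array, met the 2-fold rule toward Lgr5-high, and 2 of 5 Schwann cell genes met it toward Lgr6-high. All 6 keratinocyte genes were above background in both populations, with a median after loess of 0.95 that was 1.68 on array 1 and 0.02 on array 2. With the scanner's own ratios their median was 1.54 on array 1 and 1.14 on array 2. The part of dividing cells or of other cell types in the ratios of the Mrp genes was not tested. As a check of the labels, the brighter Lgr5 probe read -1.83 ± 0.12, and was not well above background in Lgr6-high on array 1. The other Lgr5 probe was at background in every channel. Neither Lgr6 probe passed the filter, so the check does not cover Lgr6.

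Upstream sequences were found in the RefSeq promoter table for 66 of the 75 genes. The windows run from 250 bases before to 50 bases after a start, and both strands were searched. The ETS letters CCGGAAG were present for 24 of the 66 genes (36.4%), against 22.4% of the 4688 measured genes with a window and 12.9% of other protein-coding genes. The NRF1 letters, as in the Mrpl12 sequence above, were present for 12 (18.2%), against 12.7% and 7.13%. The YY1 letters AANATGGCG were present for 9 (13.6%), against 6.98% and 3.60%. None of these letter patterns contains another, and a match is not a bound site. At least 1 of the motifs was present for 24 of 40 large and 15 of 26 small subunit genes, against 36.3% of measured genes. The median ratio was -0.41 for the 31 measured genes with any motif and -0.38 for the 24 without. By motif the order differed: for NRF1 it was -0.29 for 9 genes with and -0.41 for 46 without, for ETS -0.41 for 19 and -0.39 for 36, and for YY1 -0.40 for 7 and -0.40 for 48.

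Head-to-head starts, on opposite strands and at most 1000 bases apart with a protein-coding partner, were found for 23 of the 66 genes (34.8%). The share was 13.9% of measured genes and 8.48% of protein-coding genes. Both partners were measured in 7 of the 22 pairs. In 6 of these the partner was not an Mrp gene, and the median ratio was -0.58 for the Mrp genes and -0.04 for their partners. Mrpl18 read -0.63 ± 0.11 beside Tcp1, a chaperonin subunit, at -0.01 ± 0.37. Mrpl14 read -0.59 ± 0.27 beside Tmem63b at 0.15 ± 0.23. Mrpl51 read -0.57 ± 0.06 beside Ncapd2, a condensin subunit, at -1.06 ± 0.05, and Mrps12 read -0.33 ± 0.21 beside Sars2, a mitochondrial seryl-tRNA synthetase, at -0.27 ± 0.18. Mrpl2 read -0.15 ± 0.44 beside Klc4 at 0.07 ± 0.06. Mrpl49 read -0.68 ± 0.24 beside Fau, whose ratios were 1.14 on array 1 and -1.30 on array 2. The partner was low as well in some pairs and near 0 in others, and Fau had opposite directions on the arrays.

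The pair printed at the start, Mrpl46 and Mrps11, was the only pair with both members in the family. Mrps11 read -0.53 ± 0.10 and Mrpl46 read 0.18 ± 0.29 across a gap of 41 bases. The levels of Mrps11 were 7.07 and 6.98 in Lgr5-high and 6.61 and 6.39 in Lgr6-high cells, with no overlap. The levels of Mrpl46 were 7.03 and 6.86 against 7.0 and 7.25, with overlap. Both probes were dim, and Mrps11 was not well above background in Lgr6-high on array 1.

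**Figure D5:**
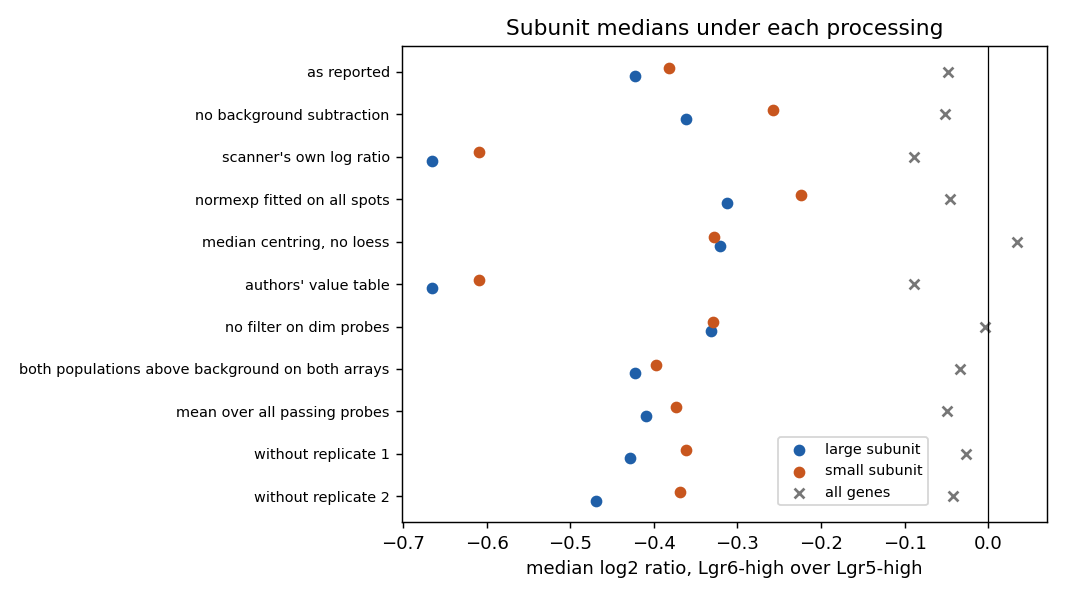
Median log2 ratio of Lgr6-high over Lgr5-high for large subunit genes (blue), small subunit genes (orange) and all genes (grey crosses) as reported and under each alternative; without replicate 1 or 2 means that array 1 or array 2 was left out. Both subunits lie below all genes in each row, between -0.67 and -0.22.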

How the data were processed

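For each array the authors deposited a scanner table of spot and local background intensity on a linear scale in both channels, a log10 ratio of Cy5 over Cy3 from the scanner software, and a value table of log10 ratios turned to Lgr6-high over Lgr5-high. Per the file headers the software was Agilent Feature Extraction 10.5.1.1, while the submitters' processing notes name 9.5.3.

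From the intensities, background was corrected with normexp (offset 50, fitted on spots without an outlier mark), and ratios were normalised by loess within each array with controls at weight 0, in limma 3.58.1 under R 4.3.3. Each array held 43379 probe spots on 1 slide, none saturated. Precision is limited by the number of arrays, 2. Levels are log2 values after scaling between arrays (Aquantile). Values on both arrays are given for genes past either rule of size and for the 5 highest and 5 lowest mean ratios of each subunit, and in other lists the values of genes past a rule and of the extremes are given on both arrays or as mean ± SD. The steps were tested on simulated data with changes of more than 2-fold in brighter spots. Smaller changes and changes in dim spots were not simulated. The members, lists and rules were chosen with earlier results of these data known. limma was run as an alternative only.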

Additional observations from a re-analysis of the deposited data

How the results depend on the processing

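Both subunit medians stayed below 0 and below the median of all genes under every alternative run, and no gene was called higher in Lgr6-high under any of them. Of the 61 genes, 56 had a mean ratio below 0 with median centring, 57 with normexp on all spots, 58 with the scanner's ratio and 59 without background subtraction. For large and small subunit genes the medians were -0.36 and -0.26 without background subtraction, -0.67 and -0.61 with the scanner's own ratio or the authors' value table, -0.31 and -0.22 with normexp fitted on all spots, -0.32 and -0.33 with median centring in place of loess, and -0.33 and -0.33 without the filter on dim probes. The small subunit median was also -0.40 for genes above background in both populations on both arrays, -0.37 with the mean over all passing probes, -0.40 by position in the ribosome and -0.37 for genes under a mean log2 intensity of 10, an alternative chosen after seeing the data. Leaving out 1 array gave -0.47 to -0.43 for large and -0.37 to -0.36 for small subunit genes. The count of genes past the 2-fold rule toward Lgr5-high, 4 as reported, became 0 with median centring. There all 4 kept their means, Mrpl11 -1.34, Mrpl28 -1.12, Mrps33 -1.02 and Mrpl13 -1.0, without 0.5 in that direction on each array. The count was 11 with the scanner's ratio or the authors' value table, but Mrps33, with a mean of -0.997, was not among the 11. Without background subtraction the count was 4, but Mrpl13, with a mean of -0.994, was not among them. The count was 3 with normexp on all spots, where Mrpl13 had a mean of -0.74. It was 2 with the mean over probes, 2 under an intensity of 10, and 3 to 6 with 1 array left out. Without loess the medians of the 61 genes were -1.84 on array 1 and 1.31 on array 2, of opposite sign, and entered the mean as -0.33. Over all genes, calls toward Lgr6-high and Lgr5-high were 447 and 297 as reported, 958 and 958 with the scanner's ratio, 209 and 209 without background subtraction, 124 and 159 with normexp on all spots, and 134 and 57 with median centring. limma, whose residual spread here is only that between 2 arrays of 1 replicate, gave 10 of the 61 Mrp genes (16.4%) an adjusted p (Benjamini-Hochberg) under 0.05, all lower in Lgr6-high, against 11.9% of all genes lower and 13.1% higher. The causes of these shifts were not tested. No paired analysis was possible because there is 1 replicate of 1 comparison.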

Other observations

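The enzymes that load mitochondrial transfer RNAs and the genes that govern mitochondrial transcription were measured in part. Of 17 mitochondrial tRNA synthetases 7 were measured, with a median ratio of -0.30, and Cars2 (-0.70 ± 0.25) and Vars2 (-0.52 ± 0.14) met the 1.41-fold rule as higher in Lgr5-high. Both were not well above background in Lgr6-high on array 1. Lars2 stood apart, with 1.47 on array 1 and -2.14 on array 2, opposite directions of large size. Iars2 was the highest of the list at 0.02 ± 0.09.

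Of 18 genes for mitochondrial transcription and its regulators 7 were measured, with a median of 0.09. Slirp, which stabilises mitochondrial messenger RNA, was the lowest at -0.64 ± 0.60. Myc, a transcription factor that promotes growth, was the highest, at 1.03 on array 1 and 1.34 on array 2, and met the 2-fold rule as higher in Lgr6-high. Pprc1, a coactivator of genes for mitochondrial proteins, read 0.43 and 1.09 and met the 1.41-fold rule as higher in Lgr6-high. In Lgr5-high it was not well above background on array 2.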
